A study of Mus musculus with 8 samples.

Results

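The 10 genes described here encode parts of the Notch pathway that make, modify, cut and relay the receptor: the receptors Notch2 and Notch4, the Fringe sugar transferases Lfng, Mfng and Rfng, the fucose transferase Pofut1, the surface proteases Adam10 and Adam17, and the nuclear partners Rbpj and Maml1. They were chosen by name, and every probeset that the array annotation assigns to exactly 1 of them was used. This gave 11 probesets for the 10 genes, with 2 for Rbpj and 1 for each other gene, among 21789 probesets for 19938 genes in all. A further 6 probesets that the annotation assigns to Notch4 and Sympk together were left out.

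Expression was measured on 8 arrays in mouse cells grown for 4 days from bone marrow lymphoid primed multipotent progenitors on OP9-DL4, a stromal line that displays the Notch ligand DL4, with Flt3L at 5 ng/ml and, as labelled, IL1 at 1 ng/ml. The groups were Tcf7+/+ (Tcf1 wildtype) T lineage cells, sorted as Thy1+CD25+ (2 arrays), Tcf7-/- (Tcf1 deficient) lineage-negative cells, sorted as Mac1-Gr1-Thy1-CD25- (3 arrays, 3 mice), and Tcf7+/+ lineage-negative cells from the same gate (3 arrays, 3 mice). Tcf1, the product of Tcf7, is a DNA-binding factor that T cell development depends on, and per the labels deficient progenitors gave no T lineage cells, so that group exists in wildtype only. All mice are labelled as a line backcrossed for about 6 generations and kept on a mixed background, and the labels give no ages. No check of the genotype on the deleted gene's own transcript is given, since it was not analysed here.

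Notch is a surface receptor that a ligand on a neighbouring cell activates, and in the thymus this signal drives progenitors into the T lineage. In the secretory pathway Pofut1 adds fucose to the receptor's extracellular repeats, and Fringe enzymes extend that fucose with a second sugar, which changes how well the receptor binds Delta-type and Jagged-type ligands. After ligand binding a metalloprotease, chiefly Adam10, cuts the receptor outside the membrane, gamma-secretase then cuts it within the membrane, and the freed domain joins the DNA-binding protein Rbpj and a Mastermind co-activator such as Maml1 to switch on target genes.

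Values are log2 levels as the authors deposited them, and a difference of 1 is a doubling. Differences were tested with limma, a linear model across all probesets, and a gene was called at a Benjamini-Hochberg adjusted p under 0.05. Marker genes were set against the sort. Of 8 T lineage markers, among them Thy1 and Il2ra (CD25), 8 were higher in T lineage cells than in the wildtype lineage-negative group. Il2ra was the 1 called marker between the genotypes, and the 1 probeset called there of all 21789. It differed by -1.02 in deficient against wildtype lineage-negative cells (limma adjusted p = 0.0283), so the 2 lineage-negative groups differed in RNA of a sort marker. The T lineage markers averaged 9.19 to 9.93 over the T lineage arrays, 6.48 to 6.55 over the deficient and 6.5 to 6.64 over the wildtype lineage-negative arrays. Of 7 myeloid markers 5, of 5 dendritic cell markers 5, of 4 B lineage markers 1 and of 3 progenitor markers 2 were lower in T lineage cells, while 1 progenitor marker was higher. Itgam (Mac1) averaged 6.64 in T lineage, 8.04 in deficient and 8.05 in wildtype lineage-negative cells, although the lineage-negative gate is Mac1-. Its difference between T lineage and wildtype lineage-negative cells was -1.41 (limma adjusted p = 0.00076). Ly6g (Gr1) differed by 0.01 (limma adjusted p = 0.954). The dendritic markers averaged 5.80 to 5.97 over the T lineage arrays, 10.04 to 10.29 over the deficient and 10.18 to 10.49 over the wildtype lineage-negative arrays, so the lineage-negative gate held such RNA in both genotypes. The 8 markers of the stroma averaged 6.89 to 6.92 in T lineage, 6.98 to 7.12 in deficient and 6.82 to 6.91 in wildtype lineage-negative arrays. None of the 8 passed between T lineage and wildtype lineage-negative cells or between the genotypes. In T lineage cells 2 were lower than in deficient cells, where 8.16% of all probesets were lower. They were Sparc with a difference of -0.54 (limma adjusted p = 0.0021) and Cxcl12 with -0.62 (limma adjusted p = 0.0474). Of the 8, 3 were higher in every deficient array than in every wildtype lineage-negative array, where 3.93% of all probesets were. They were Sparc at 0.54 (unadjusted p = 4.12e-05, limma adjusted p = 0.0998), Cxcl12 at 0.42 (limma adjusted p = 0.959) and Pdgfrb at 0.39 (limma adjusted p = 0.688). In sorted bulk RNA, fewer cells of a type and less RNA per cell cannot be told apart, and the part of these other cell types in the results that follow was not tested.

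T lineage cells differed from wildtype lineage-negative cells in 4 of the 10 genes, and in both directions. The Fringe genes Mfng and Lfng rose, by 1.51-fold and 1.29-fold. The receptor gene Notch2 and the protease gene Adam17 fell, and were 1.71-fold and 1.27-fold lower. Rfng, Pofut1, Adam10, Notch4, Rbpj and Maml1 did not pass. A share of 18% of all probesets passed in this comparison (7.66% higher and 10.4% lower), against 4 of 10 here. The median size of the difference was 0.23 over the 10 genes and 0.13 over all probesets, with a median SE of 0.09 for both. These sets are unlike. Each of the 10 genes counts by its probeset of smallest p. Apart from Rbpj probeset 10521911, their probesets lay outside the dimmest 40% by mean level, which all probesets include.

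**Figure D1:**
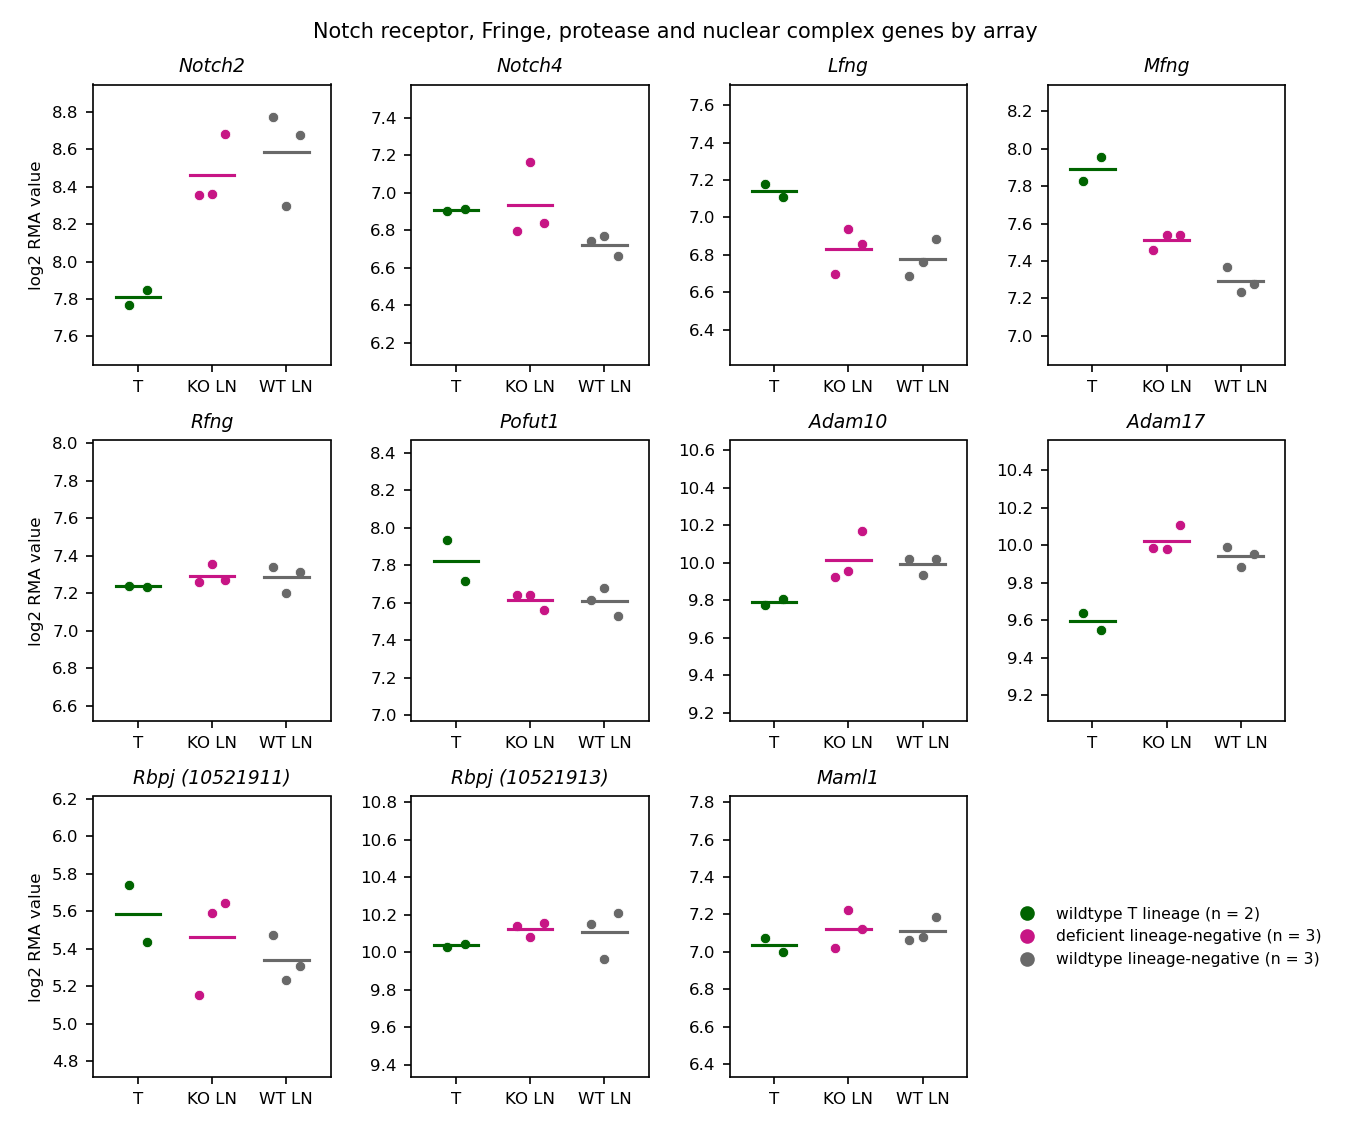
Log2 level of each of the 11 probesets on each array (points) with group means (bars), for T lineage (T), deficient lineage-negative (KO LN) and wildtype lineage-negative (WT LN) cells. Every panel spans the same range of log2 units around its own centre. Mfng and Lfng lie highest in both T lineage arrays, Notch2 and Adam17 lowest, and Rfng differs little.

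The upstream windows of 3 of the 4 genes that passed are shown first, to show where binding motifs of Rbpj and Tcf1 do and do not occur. RefSeq (GRCm38.p6) gave promoter windows for 9 of the 10 genes, all but Mfng, and the windows of Lfng (chr5:140607091-140607340, plus strand), Notch2 (chr3:98013288-98013537, plus strand) and Adam17 (chr12:21373633-21373882, minus strand) are printed as the 250 bases before the start, 5′ to 3′ on the gene's strand. Capitals mark matches, on either strand, to TGGGAA, the core that Rbpj binds, or to CTTTGA, a core that Tcf1 and its relatives bind.
Lfng: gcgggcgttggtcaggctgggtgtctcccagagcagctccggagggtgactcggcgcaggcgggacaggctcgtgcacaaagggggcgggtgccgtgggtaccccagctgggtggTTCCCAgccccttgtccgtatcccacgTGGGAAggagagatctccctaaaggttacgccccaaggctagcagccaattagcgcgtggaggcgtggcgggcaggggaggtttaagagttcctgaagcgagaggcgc
Notch2: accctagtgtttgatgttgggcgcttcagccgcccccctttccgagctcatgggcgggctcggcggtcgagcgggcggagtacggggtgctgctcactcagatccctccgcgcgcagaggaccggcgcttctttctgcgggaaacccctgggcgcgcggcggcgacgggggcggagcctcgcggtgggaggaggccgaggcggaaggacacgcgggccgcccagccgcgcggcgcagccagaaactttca
Adam17: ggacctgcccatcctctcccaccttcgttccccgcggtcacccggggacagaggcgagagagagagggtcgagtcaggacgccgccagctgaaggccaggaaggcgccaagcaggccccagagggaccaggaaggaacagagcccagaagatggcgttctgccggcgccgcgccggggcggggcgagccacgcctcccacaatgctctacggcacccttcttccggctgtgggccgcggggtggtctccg
Lfng held the Rbpj core on both strands, with matches that begin 135 and 108 bases before the start. Notch2 and Adam17 held neither core in these windows. Among the other genes, Rbpj's own windows, which overlap each other, held TGGGAA. The window of Maml1 held CTTTGA, 78 bases before its transcript start. The windows of both genes precede transcript starts that lie inside the annotated gene. Rbpj's windows begin at 53590096 and 53590236 in a gene that spans 53555779-53657445. Maml1's window ends at 50292586 in a minus-strand gene that spans 50255634-50293131. Of 32851 such windows of the same length in the RefSeq table, 21.6% held TGGGAA and 13.8% held CTTTGA on either strand. A match says only that the letters are present, and no binding was measured.

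Notch2, the receptor that marginal zone B cells and some dendritic cells depend on, showed the largest difference of the 10 genes. Its level was 7.77 and 7.85 in the T lineage arrays, 8.35, 8.36 and 8.68 in the deficient lineage-negative arrays, and 8.77, 8.30 and 8.68 in the wildtype lineage-negative arrays. Both T lineage arrays lay below all 6 lineage-negative arrays, and the lineage-negative genotypes overlapped. The fall was -0.77 against wildtype lineage-negative cells (SE 0.14, limma adjusted p = 0.00329) and -0.66 against deficient cells (SE 0.14, limma adjusted p = 0.0107). The second call did not survive leaving out T lineage array 1 (-0.62, adjusted p = 0.0708) or testing all probesets of the table (adjusted p = 0.0501), and its adjusted p ran from 0.00355 to 0.0708 over the 16 alternatives tried. Deficient and wildtype cells differed by -0.12 (95% interval -0.40 to 0.16, limma adjusted p = 0.9995).

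Notch4, a receptor known mainly from blood vessel endothelium, ordered the groups in another way. T lineage arrays stood at 6.90 and 6.92, deficient arrays at 6.79, 7.16 and 6.84, and wildtype lineage-negative arrays at 6.74, 6.77 and 6.66. Wildtype lineage-negative cells were lowest on every array, while the T lineage arrays lay within the range of the deficient ones. No comparison passed: the difference was 0.18 for T lineage against wildtype lineage-negative cells (limma adjusted p = 0.294), -0.02 for T lineage against deficient cells (limma adjusted p = 0.914), and 0.21 for deficient against wildtype cells (95% interval -0.0038 to 0.42, unadjusted p = 0.0535, limma adjusted p = 0.9995).

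Mfng, or Manic fringe, had the smallest p of the 10 genes between T lineage and wildtype lineage-negative cells. Its level was 7.83 and 7.95 in T lineage arrays, 7.46, 7.54 and 7.54 in deficient arrays, and 7.37, 7.24 and 7.28 in wildtype lineage-negative arrays. The 3 groups did not overlap, and the deficient arrays lay between the other two groups. The rise was 0.60 against wildtype lineage-negative cells (SE 0.08, limma adjusted p = 0.000383) and 0.38 against deficient cells (SE 0.08, limma adjusted p = 0.00841). The second did not pass when T lineage array 2 was left out (0.32, adjusted p = 0.0838), and its adjusted p ran from 0.00444 to 0.0838 over the alternatives. Deficient cells stood 0.22 above wildtype lineage-negative cells (SE 0.07, 95% interval 0.06 to 0.38), which had an unadjusted p = 0.0109 and did not pass over all probesets (limma adjusted p = 0.827).

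Lfng, or Lunatic fringe, is the Fringe that thymocyte studies in mice have used most, where it strengthens the response to Delta-type ligands. T lineage arrays read 7.18 and 7.11, deficient arrays 6.70, 6.94 and 6.86, and wildtype lineage-negative arrays 6.69, 6.76 and 6.88. The T lineage arrays were highest and the lineage-negative genotypes overlapped. Lfng rose by 0.37 against wildtype lineage-negative cells (SE 0.09, limma adjusted p = 0.0201) and by 0.31 against deficient cells (SE 0.09, limma adjusted p = 0.0499), with 0.05 between the genotypes (95% interval -0.13 to 0.24). Both calls lay near the threshold. The first was lost in 5 of 16 alternatives, among them the fits without T lineage array 1 (adjusted p = 0.124) or array 2 (0.0621) and without wildtype lineage-negative array 1 (0.0684) or array 2 (0.0578), and the second in 12 of 16, while the differences stayed between 0.25 and 0.42.

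Rfng, or Radical fringe, did not follow the other Fringe genes. Its level was 7.24 in both T lineage arrays, 7.26, 7.35 and 7.27 in deficient arrays, and 7.34, 7.20 and 7.31 in wildtype lineage-negative arrays. All arrays lay within a narrow band, and the T lineage arrays lay just below the deficient ones and inside the wildtype lineage-negative range. The difference was -0.05 against wildtype lineage-negative cells, with a 95% interval of -0.22 to 0.12 that lies wholly below the Mfng interval of 0.42 to 0.77 and the Lfng interval of 0.16 to 0.57. Against deficient cells it was -0.06 (95% interval -0.226 to 0.113). That interval lay below the Mfng interval of 0.204 to 0.555 but overlapped the Lfng interval of 0.105 to 0.521. Between the genotypes the Rfng difference was 0.0096 (95% interval -0.14 to 0.16). The differences between these genes were not themselves tested.

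Pofut1, the enzyme that adds the fucose on which Fringe acts, read 7.93 and 7.72 in T lineage arrays, 7.64, 7.64 and 7.56 in deficient arrays, and 7.62, 7.68 and 7.53 in wildtype lineage-negative arrays. T lineage arrays were highest, but their own gap of 0.22 was as large as the difference between groups. That difference was 0.22 against wildtype lineage-negative cells (95% interval 0.02 to 0.41, limma adjusted p = 0.131) and 0.21 against deficient cells (95% interval 0.01 to 0.41, limma adjusted p = 0.16), and the genotypes differed by 0.0062. It passed against wildtype lineage-negative cells after a second quantile normalization (0.29, limma adjusted p = 0.0495), and in none of the other 15 alternatives.

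Adam17, a sheddase of many cytokines and receptors that can also cut Notch, was lower in T lineage cells. T lineage arrays stood at 9.64 and 9.55, deficient arrays at 9.99, 9.98 and 10.11, and wildtype lineage-negative arrays at 9.99, 9.88 and 9.95. The T lineage arrays lay below all lineage-negative arrays of both genotypes, which overlapped. Adam17 fell by 0.35 against wildtype lineage-negative cells (SE 0.08, limma adjusted p = 0.0106) and by 0.43 against deficient cells (SE 0.08, limma adjusted p = 0.00388), where it was 1.35-fold lower. Leaving out T lineage array 2 ended the first call (-0.30, adjusted p = 0.0883, with 0.00466 to 0.0883 over the alternatives), and the second held in all 16 alternatives.

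Adam10, the protease that ligand-activated Notch chiefly depends on, read 9.77 and 9.81 in T lineage arrays, 9.92, 9.95 and 10.17 in deficient arrays, and 10.02, 9.93 and 10.02 in wildtype lineage-negative arrays. Both T lineage arrays were lowest here too. The difference was -0.20 against wildtype lineage-negative cells (95% interval -0.40 to -0.0056, limma adjusted p = 0.158) and -0.23 against deficient cells (95% interval -0.42 to -0.03, limma adjusted p = 0.132), and neither passed over all probesets. The genotypes differed by 0.02.

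Rbpj, the DNA-binding partner of Notch in the nucleus, was read by 2 probesets. The one assigned to the RefSeq transcripts (10521913) stood at 10.03 and 10.04 in T lineage arrays, 10.14, 10.08 and 10.16 in deficient arrays, and 10.15, 9.96 and 10.21 in wildtype lineage-negative arrays. T lineage arrays lay below the deficient ones and inside the wildtype lineage-negative range, with a difference of -0.07 from wildtype lineage-negative cells (95% interval -0.26 to 0.12, limma adjusted p = 0.651). The other probeset (10521911), among the dimmest 40% of probesets, read 5.74 and 5.43 in T lineage arrays, 5.15, 5.59 and 5.65 in deficient arrays, and 5.47, 5.24 and 5.31 in wildtype lineage-negative arrays. It disagreed in sign at 0.25 (95% interval -0.08 to 0.58, limma adjusted p = 0.308), and its T lineage arrays were 0.31 apart.

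Maml1, the co-activator that joins Rbpj and Notch, lies on chromosome 11, 1.95 Mb from the targeted Tcf7 gene in GRCm38.p6. It read 7.07 and 7.00 in T lineage arrays, 7.02, 7.22 and 7.12 in deficient arrays, and 7.06, 7.08 and 7.19 in wildtype lineage-negative arrays. The groups overlapped in every comparison. Deficient and wildtype lineage-negative cells differed by 0.01 (95% interval -0.15 to 0.18, limma adjusted p = 0.9995), and T lineage and wildtype lineage-negative cells by -0.07 (95% interval -0.26 to 0.11, limma adjusted p = 0.626).

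Against deficient lineage-negative cells, T lineage cells were again higher in 2 of the 10 genes (Mfng and Lfng) and lower in 2 (Notch2 and Adam17), where 14.1% of all probesets passed (5.98% higher and 8.16% lower). The T lineage arrays are the same in both comparisons, so this is not a second, independent observation. T lineage arrays did not overlap wildtype lineage-negative arrays in 7 of the 10 genes, 4 higher and 3 lower, where 47.8% of all probesets did not overlap (28.0% higher and 19.8% lower). They did not overlap deficient arrays in 8 of the 10 genes, 3 higher and 5 lower, where 40.7% of all probesets did not overlap (23.6% higher and 17.1% lower). The T lineage arrays differed from each other by 0.0038 to 0.31 over the 11 probesets, with a median of 0.07, against a median of 0.11 over all probesets. Without T lineage array 2, the count of called genes was 2 against wildtype lineage-negative cells (Mfng and Notch2). Against deficient cells it was 2 without T lineage array 1 (Mfng and Adam17) and 2 without T lineage array 2 (Notch2 and Adam17). The lone T lineage array was then assumed to vary like the other groups.

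Between the genotypes, none of the 10 genes passed with limma, and 1 (Mfng) had an unadjusted p under 0.05. Over all probesets 0.00459% passed and 4.92% had an unadjusted p under 0.05. The difference was positive in 9 of the 10 genes, with a median of 0.04 where all probesets had a median of -0.0075. The share of all probesets with a positive difference was not counted. Of these genes Pofut1, Rfng, Maml1, Adam10 and Lfng lay between 0.0062 and 0.053, and each changed sign in some fits without 1 array. Rbpj counts here by its dim probeset 10521911. The arrays did not overlap for Mfng and Notch4, both higher in deficient cells, where 3.93% of all probesets were higher without overlap, 6.01% were lower and 9.95% did not overlap in either direction. The 95% intervals of the 11 probesets all lay between -0.40 and 0.42, and these intervals are not adjusted for the number of genes.

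**Figure D2:**
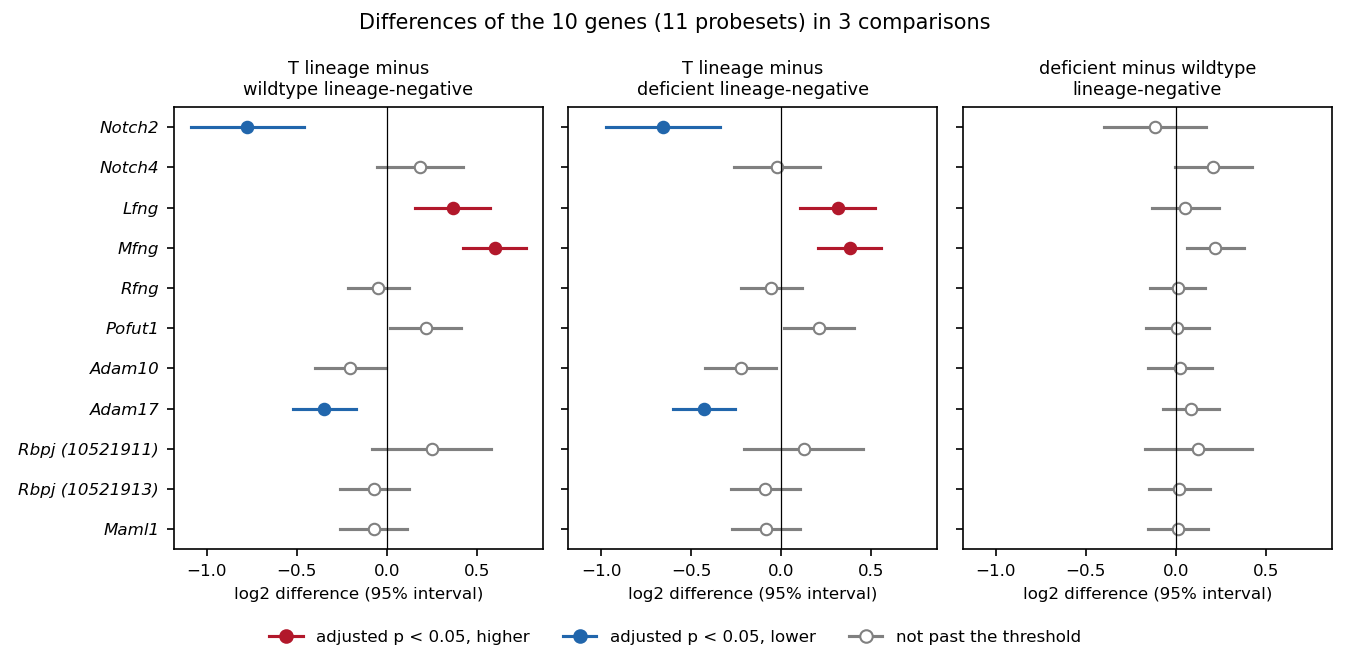
Log2 difference of each probeset with its 95% interval (bars, not adjusted for multiple tests) in the 3 comparisons, with filled points for limma adjusted p under 0.05. Mfng and Lfng lie right of 0 and Notch2 and Adam17 left of 0 in both T lineage panels, and no point is filled between the genotypes.

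The genes whose 8 array values ran most like those of a called gene were found by the root mean square difference of mean-centred log2 levels. For Mfng they were 3110082I17Rik, Dpy19l3 and Tfdp1, at 0.05 to 0.06 against a median of 0.24 over all probesets compared. For Notch2 they were Dock1, Map3k1 and Irf2, at 0.07 to 0.09 against 0.38. For Adam17 they were Wsb1, Pik3cg and Fam217b, at 0.04 to 0.05 against 0.22. The named genes are the nearest of all compared, so lying below the median follows from the search itself. Genes on chromosome 18 were left out of this search.

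Other Notch pathway genes were taken from a list of 61, of which 58 were measured by a probeset of their own and 3 were not analysed here. Between T lineage and wildtype lineage-negative cells 4 rose, 8 fell and 46 did not pass, a share of 20.7% called, near the 18% of all probesets. Their median difference was -0.02, where all probesets had 0.04. Against deficient cells 3 rose, 7 fell and 48 did not pass (17.2%). The counts by role that follow rest on 2 to 17 genes each. They stand beside 7.66% of all probesets higher and 10.4% lower against wildtype lineage-negative cells.

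Of the other receptors, Notch1, which T lineage entry requires, differed by 0.26 between T lineage and wildtype lineage-negative cells (limma adjusted p = 0.325), and Notch3 by 0.07 (limma adjusted p = 0.634). Neither passed, so Notch2 was the only one of the 4 receptor genes called. Notch1 averaged 8.62 in T lineage, 8.71 in deficient and 8.36 in wildtype lineage-negative cells. Between the genotypes it differed by 0.35 (unadjusted p = 0.0368, limma adjusted p = 0.979), with overlapping arrays. None of the 6 ligand genes passed, and Dlk1, an atypical ligand-like protein, had the largest difference at 0.25 (limma adjusted p = 0.103).

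Among 7 genes of the cutting machinery 2 fell and 0 rose. Aph1c, a subunit of gamma-secretase, fell by 0.80 against wildtype lineage-negative cells (SE 0.12, limma adjusted p = 0.000662), and its paralog Aph1b fell by 0.35 (limma adjusted p = 0.0327). Against deficient cells Aph1c differed by -0.70 (limma adjusted p = 0.00202) and Aph1b by -0.07 (limma adjusted p = 0.738). The paralogs are close in sequence, and cross-hybridization between their probesets was not tested. Among 5 further sugar transferases 1 fell: Eogt, which adds N-acetylglucosamine to the same kind of repeats, by 0.73 (SE 0.14, limma adjusted p = 0.00382).

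In the nuclear complex and its co-repressors 3 of 14 genes fell and 0 rose. L3mbtl3, a chromatin reader that binds Rbpj, fell by 0.63 (limma adjusted p = 0.000998), and the acetyltransferase genes Ep300 and Kat2b, whose products serve as co-activators of the complex, fell by 0.47 (limma adjusted p = 0.00193) and 0.41 (limma adjusted p = 0.022). Against deficient cells L3mbtl3 and Ep300 also passed, and Kat2b did not (-0.33, limma adjusted p = 0.069). Of 17 genes of endocytosis and ubiquitin ligases 2 rose and 2 fell against wildtype lineage-negative cells. Dtx4, a Deltex-family ligase, fell by 0.75 (limma adjusted p = 0.000135), while Aak1, a kinase of clathrin-coated vesicles, rose by 0.60 (limma adjusted p = 0.000448) and Nle1, a Notchless homologue with a role in ribosome assembly, rose by 0.49 (limma adjusted p = 0.00144).

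Of 7 target and feedback genes 2 rose and 0 fell. Hes1, a repressor that Notch switches on directly, rose by 0.75 (limma adjusted p = 0.00145), and Nrarp, a feedback inhibitor, by 0.61 (limma adjusted p = 0.00156). Between T lineage and deficient cells Hes1 differed by 0.14 (limma adjusted p = 0.522). Hes1 read 7.91 and 8.16 in T lineage arrays, 7.88, 7.72 and 8.08 in deficient arrays, and 7.22, 7.20 and 7.43 in wildtype lineage-negative arrays. Deficient arrays all lay above the wildtype lineage-negative ones, by 0.61 on average (95% interval 0.37 to 0.86, unadjusted p = 0.000189), which did not pass over all probesets (limma adjusted p = 0.198). Between the genotypes none of the 58 genes passed with limma, and 4 had an unadjusted p under 0.05, where 4.92% of all probesets did.

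**Figure D3:**
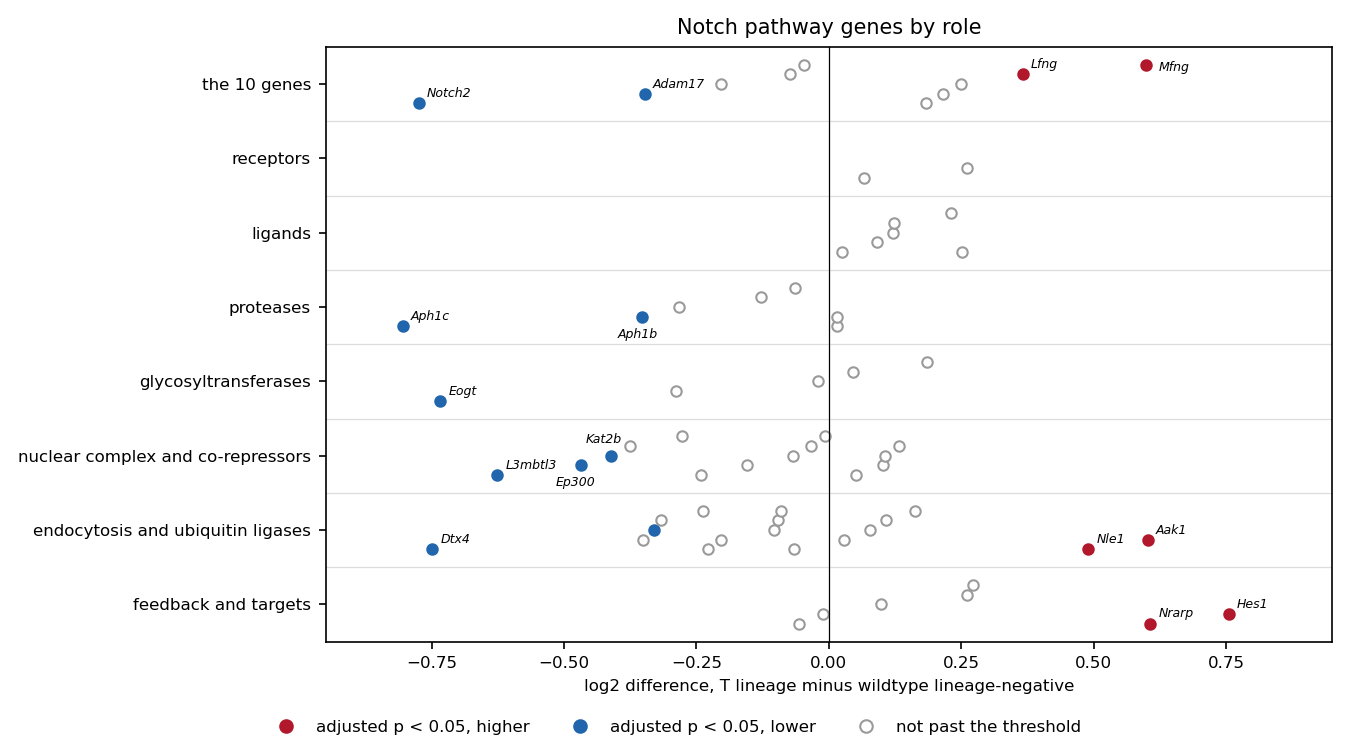
Log2 difference between T lineage and wildtype lineage-negative cells for the 10 genes (top row) and for 58 other Notch pathway genes by role, 1 point a gene (the probeset of smallest p). Filled points passed at a limma adjusted p under 0.05. The called receptor, protease and nuclear complex genes lie left of 0, as do Eogt and the called ubiquitin ligase genes, among them Dtx4. Lfng, Mfng, Aak1, Nle1, Nrarp and Hes1 lie right of 0.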

How the data were processed

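Total RNA (10 ng) was amplified and biotin-labelled for each array, per the labels' protocols. The authors deposited log2 values, made with RMA in Partek 6.5 per the submitters' processing notes, and the log2 scale was read from the values, whose array medians lay between 6.85 and 6.91. Further options, scan dates and the array's genome build are not stated there, and detection levels were not used. The number of arrays limits the precision.

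Probesets with no gene (11989) or several genes (1621) of 35399 were left out. The other 21789 were fitted with limma 3.58.1 in R 4.3.3 (lmFit, eBayes) as 3 groups with 5 residual degrees of freedom, two-sided, with p adjusted over all of them. A gene with several probesets counts by that of smallest p in each comparison.

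All 10 genes are reported. Other pathway genes are named by role, as up to 3 called genes of largest difference between T lineage and wildtype lineage-negative cells or the 1 of largest difference, with Notch1, Notch3 and Hes1 always. The nearest genes are given for the 3 genes of smallest p. The members, lists and tests were chosen with earlier results of these data known. Alternatives left out each array, fitted only the groups compared, used the replicate number as a block, dropped the dimmest 40% of probesets, normalised again or centred arrays, used array weights or an intensity trend, or tested all probesets. The lineage-negative arrays are labelled as separate mice. The T lineage arrays are labelled as biological replicates, but the mice they came from are not given. The p-values there may therefore not measure the spread between mice.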

Additional observations from a re-analysis of the deposited data

How the results depend on the processing

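Over 16 alternatives, the number of the 10 genes called was 2 to 5 for T lineage against wildtype lineage-negative cells (4 as reported), 2 to 4 for T lineage against deficient cells (4 as reported) and 0 for deficient against wildtype cells. Leaving out 1 array gave 2 to 4 in both T lineage comparisons. With all probesets of the table tested, 2 genes passed against deficient cells. The other pathway genes called against deficient cells numbered 6 to 12 when 1 array was left out (10 as reported), with 6 without T lineage array 1. Of 525 differences of single probesets under these alternatives, 485 kept their direction and side of the threshold, 21 lost a call, 1 gained one and 18 changed sign. Only the differences called in the T lineage comparisons, 4 in each, could lose a call. A difference cannot move where the array left out is in neither group compared, or where only the test changes. The 485 includes such differences. None of the 18 was a called difference. Their ranges when 1 array was left out were, between the genotypes, -0.054 to 0.070 for Adam10, -0.00016 to 0.12 for Lfng, -0.038 to 0.064 for Maml1, -0.034 to 0.043 for Pofut1, -0.052 to 0.071 for Rbpj (10521913) and -0.031 to 0.037 for Rfng, and between T lineage and deficient cells -0.094 to 0.091 for Notch4 and -0.031 to 0.28 for Rbpj (10521911). With array weights Rfng was at -0.0033 and Pofut1 at -0.011 between the genotypes, and Notch4 at 0.011 between T lineage and deficient cells. The causes were not tested.

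The number of all probesets called between the genotypes was 0 to 12 (1 as reported), and between T lineage and deficient cells it was 2026 with all probesets tested, against 3081. After a second quantile normalization T lineage against wildtype lineage-negative cells gave 2174 higher and 2006 lower probesets, against 1670 and 2258. The median difference of all probesets in that comparison stayed between 0.03 and 0.06.

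The deviations of same-numbered lineage-negative arrays of the 2 genotypes correlated with r of -0.13, 0.02 and 0.04. Differently numbered ones gave -0.11 to 0.08. With 3 arrays a group, centred on their own mean, such values cannot show whether replicates were paired. Same-numbered T lineage and wildtype lineage-negative arrays gave 0.16 and 0.12, and same-numbered T lineage and deficient arrays -0.14 and -0.25. With 2 T lineage arrays these deviations mirror each other, and the labels tie no T lineage array to a mouse. With the replicate block 4 of the 10 genes passed against wildtype lineage-negative cells, 3 against deficient cells, where Lfng was lost (0.35, limma adjusted p = 0.0529), and 0 between the genotypes. The T lineage group had 2 arrays.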
